A study of Mus musculus with 10 samples.

Results

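Gene expression was compared between cells with high and cells with medium signal of an Lgr5 reporter, among mouse intestinal epithelial cells whose Ki67 reporter signal was low. Both groups were sorted by fluorescence from mice with Lgr5-EGFP-ires-CreERT2, an allele that makes green fluorescent protein (GFP) and the inducible recombinase CreERT2 from the Lgr5 promoter, and with Ki67-TagRFP, which joins a red fluorescent protein to the end of the Ki67 protein. The Lgr5-high Ki67-low group had 2 arrays and the Lgr5-medium Ki67-low group had 2 arrays, chosen by their titles from the 10 arrays of the study. The other arrays were sorted from the same reporters and held Lgr5-high Ki67-high cells (2 arrays) and Lgr5-medium Ki67-high cells (4 arrays). Every group thus carried both reporters, and no treatment is named for any of them. The sources used here do not state the age, sex or strain of the mice, the stretch of intestine or the number of animals. Nothing in the labels says that replicates came from separate animals, so the p-values measure only the spread between these arrays, which may be technical.

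Lgr5 is a receptor for R-spondins, secreted proteins that strengthen Wnt signalling, and it marks the crypt base columnar cells, the stem cells at the bottom of intestinal crypts. Their daughters lose Lgr5 as they leave the crypt base and either become absorptive enterocytes, a route that needs Notch signalling, or become secretory cells under the transcription factor Atoh1. The secretory types are the mucus-making goblet cells, the antimicrobial Paneth cells and the hormone-making enteroendocrine cells, while tuft cells are chemosensory cells that release lipid mediators and interleukin-25. Ki67 protein is present in cycling cells and is broken down after they leave the cycle. A low reporter signal is therefore taken as a sign of slow or halted division, which was not measured here.

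The arrays were Affymetrix Mouse Gene ST 1.1, each with the total RNA of 1 sample, and 18820 genes were tested. A level is a deposited value read as log2, a difference is the mean of the Lgr5-high arrays minus the mean of the Lgr5-medium arrays, and a difference of 1 is 2-fold. Each difference is given with its standard error (SE) from a limma fit to all 10 arrays, and a gene is said to be called where its Benjamini-Hochberg adjusted p was under 0.05. Unless Ki67 high is named, "Lgr5-high arrays" and "Lgr5-medium arrays" are the 2 Ki67-low arrays of each kind, listed as replicate 1 and then replicate 2. Pairs of arrays correlated across genes between 0.982 and 0.995. The array that correlated least with the others, by the mean (0.986), was Lgr5-medium Ki67-high replicate 4, and limma's array weights gave it 0.294 against 0.875 or more for every other array. Precision is limited by the number of arrays, with a median SE of 0.13 for a difference.

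The levels of the sorted genes followed the gates for Lgr5. Lgr5 values were 10.02 and 10.43 in the Lgr5-high arrays and 8.76 and 8.41 in the Lgr5-medium arrays. The groups did not overlap, and the difference was 1.64 ± 0.16 (adjusted p = 0.00054), which checks the sort and is no finding, because the cells were sorted on this gene's promoter. Mki67, which encodes Ki67, was 10.06 and 10.10 in the Lgr5-high arrays and 9.75 and 9.83 in the Lgr5-medium arrays, a difference of 0.29 ± 0.13 that did not pass the test (adjusted p = 0.36). Its values in the 6 Ki67-high arrays ran from 9.83 to 10.27, so on the level of RNA the Ki67-low arrays overlapped with the Ki67-high ones, while the gate was set on a protein. Epcam, the adhesion molecule of all intestinal epithelial cells, was 11.54 and 11.39 in the Lgr5-high arrays and 11.42 and 11.42 in the Lgr5-medium arrays. Of 20 measured genes that mark the whole epithelium, among them keratins, Cdh1, Cdx2 and Hnf4a, 0 were called in either direction by limma after adjustment (0 higher and 4 lower at an unadjusted p under 0.05, as given for other lists without calls), and their median difference was -0.08.

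**Figure D1:**
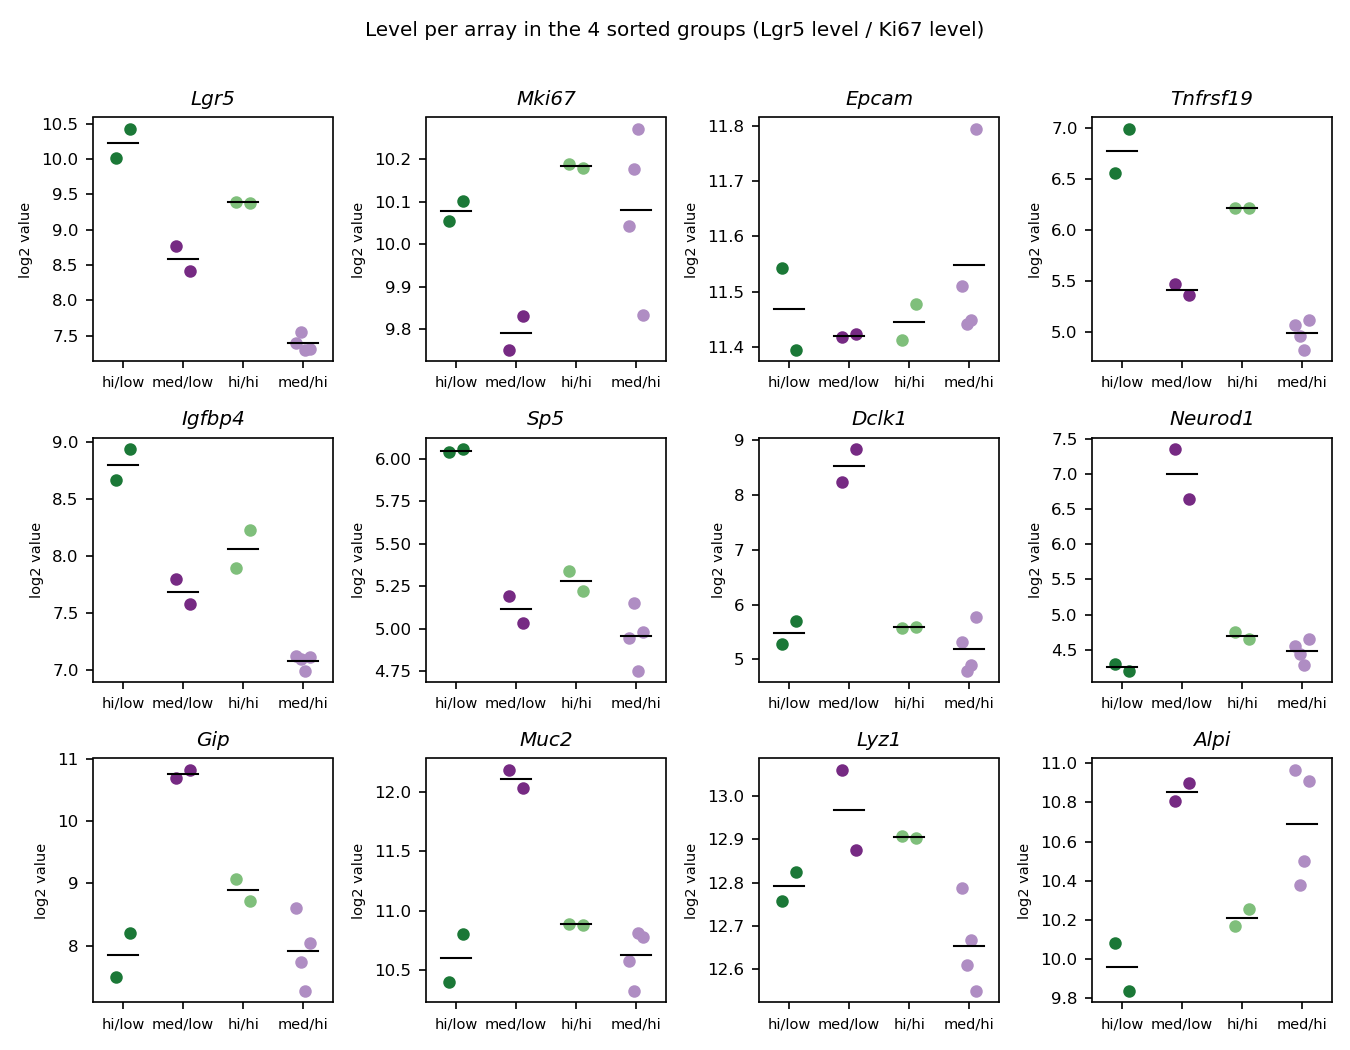
Levels (log2, y axis, on a separate scale for each gene) of 12 genes in the 4 sorted groups (x axis); each point is 1 array and each bar the group mean. Lgr5, Tnfrsf19, Igfbp4 and Sp5 lie higher in the Lgr5-high than in the Lgr5-medium Ki67-low arrays, while Dclk1, Neurod1, Gip and Muc2 reach their highest values in the 2 Lgr5-medium Ki67-low arrays, and Epcam and Lyz1 were not called.

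In the Lgr5-high arrays, markers of crypt base stem cells were higher, and genes of tuft, enteroendocrine and goblet cells were lower. Tnfrsf19, a stem cell marker, was 2.57-fold higher, whereas the tuft cell marker Dclk1 was 8.26-fold lower, the gut hormone Gip 7.51-fold lower and the mucin Muc2 2.85-fold lower. Of the 18820 genes, 534 were called (2.84%), of which 124 were higher (0.659%) and 410 were lower (2.18%). At least 2-fold differences were more frequent among the lower genes, with 206 of them, than among the higher ones, with 14. Set beside the Ki67-high groups, 112 of the 124 higher genes had their highest mean of the 4 groups in Lgr5-high Ki67-low cells, and 388 of the 410 lower genes had theirs in Lgr5-medium Ki67-low cells; the call itself favours these groups, so the counts describe the called genes and support nothing. When each array was centred on its median, which shifted the median difference of all genes from 0.03 to 0.10, the calls split into 253 higher and 328 lower. The counts rested on few arrays: without Lgr5-high Ki67-low replicate 2, 16 genes were called higher and 182 lower, and without Lgr5-medium Ki67-high replicate 4 these were 328 and 593. Without Lgr5-high Ki67-low replicate 1, 76 were higher and 265 lower, and without Lgr5-medium Ki67-low replicate 1 these were 37 and 234. Without Lgr5-medium Ki67-low replicate 2, 44 were higher and 371 lower, and without either Lgr5-high Ki67-high array 71 and 301.

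**Figure D2:**
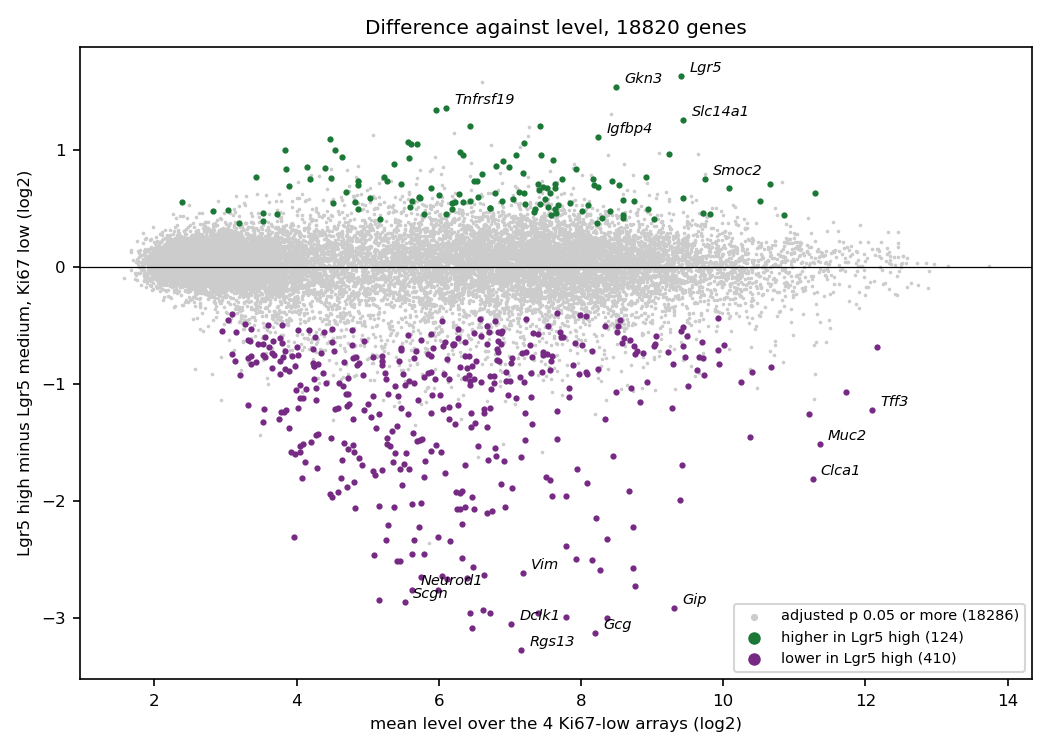
Difference between Lgr5-high and Lgr5-medium cells at Ki67 low (log2, y axis) against the mean level over the 4 Ki67-low arrays (log2, x axis) for 18820 genes; coloured points are the 124 genes called higher and the 410 called lower, and the other 18286 are grey. The called genes below 0 reach further from 0 than those above it.

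Stem cell markers were among the higher genes, and 0 were called lower (1 unadjusted). Of 32 measured markers of crypt base columnar cells, 16 were called higher, the gate gene Lgr5 among them, and 0 lower. Over all genes, 0.659% were called higher. Of the 32 markers, 31 lay above 0, as did 10787 of all 18820 genes, and their median difference was 0.82 (0.03 over all genes). Tnfrsf19, a receptor of the tumour necrosis factor family also known as Troy, was 6.56 and 6.995 in the Lgr5-high arrays and 5.46 and 5.36 in the Lgr5-medium arrays. The groups did not overlap, and the difference was 1.36 ± 0.15 (adjusted p = 0.0009). Slc14a1, a urea transporter, was 9.85 and 10.29 against 8.95 and 8.67 (difference 1.26 ± 0.15). Igfbp4, which binds insulin-like growth factors, was 8.66 and 8.94 against 7.80 and 7.58 (difference 1.11 ± 0.14), and Smoc2, a secreted calcium-binding matrix protein, was 9.99 and 10.24 against 9.32 and 9.41 (difference 0.76 ± 0.11). In each of these genes both Lgr5-high arrays lay above both Lgr5-medium arrays, and replicate 2 of the Lgr5-high group was the highest of the 4. The actin-associated Afap1l1 (0.96), the adaptor Sorbs2 (1.21), Cttnbp2, which binds cortactin (1.21), Rgmb, a co-receptor for bone morphogenetic proteins (0.97), and the matrix protein Prelp (1.06) were called higher as well. Averaged over the 32 markers, the level relative to each gene's own mean over the 10 arrays was 0.64 and 0.83 in the Lgr5-high Ki67-low arrays, 0.34 and 0.38 in the Lgr5-high Ki67-high arrays, -0.03 and -0.14 in the Lgr5-medium Ki67-low arrays, and -0.61 to -0.41 in the 4 Lgr5-medium Ki67-high arrays. The Lgr5-high Ki67-low arrays were thus the highest for these markers, above the Lgr5-high Ki67-high arrays. Lgr5, which is among the markers, was itself higher in them than in the Lgr5-high Ki67-high arrays. Ki67 differed by reporter signal, while its RNA overlapped.

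Several of the best known stem cell genes did not pass the test. Ascl2, a transcription factor needed by these stem cells, was 8.29 and 8.53 in the Lgr5-high arrays and 7.56 and 7.70 in the Lgr5-medium arrays, a difference of 0.79 ± 0.20 (adjusted p = 0.0692). Olfm4, a secreted glycoprotein, was 12.54 and 12.67 in the Lgr5-high arrays and 12.32 and 12.29 in the Lgr5-medium arrays, a difference of 0.30 ± 0.11 (adjusted p = 0.229). Both genes had higher values in both Lgr5-high arrays, as did 27.8% of all genes; another 19.3% lay lower without overlap, 47.1% together. The number of markers called depended on single arrays: 7 were called higher without Lgr5-high Ki67-low replicate 2, 9 without Lgr5-medium Ki67-low replicate 1, 10 without Lgr5-medium Ki67-low replicate 2, and 21 at most. Lgr5, Tnfrsf19, Slc14a1, Igfbp4, Sorbs2 and Afap1l1 were called with any 1 of the 10 arrays left out, whereas Smoc2, Rgmb and Cttnbp2 lost the call when Lgr5-high Ki67-low replicate 2 was left out, and with 1 or 2 other Ki67-low arrays left out (highest adjusted p 0.0673, 0.165 and 0.11), and Prelp without any 1 of 8 arrays (0.189). Of 11 markers that have been linked to reserve stem cells, 0 were called (3 higher and 1 lower unadjusted), with Clu at 0.72 ± 0.17 (adjusted p = 0.0523) and Lrig1 at 0.64 ± 0.17 (adjusted p = 0.091).

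Some Wnt target genes were higher. Of 23 measured targets, 4 were called higher (Lgr5, Tnfrsf19, Sfrp5 and Sp5) and 0 lower (1 unadjusted), with a median difference of 0.61. The share called higher over all genes was 0.659%, which also stands beside the receptors and inhibitors below. Of these, the gate gene Lgr5, Tnfrsf19 and Sp5 also belong to the stem cell markers above. Sp5, a zinc finger transcription factor switched on directly by Wnt signals, was 6.04 and 6.06 in the Lgr5-high arrays and 5.20 and 5.03 in the Lgr5-medium arrays. Both Lgr5-high values lay above both Lgr5-medium values, with a difference of 0.94 ± 0.13 (adjusted p = 0.0034). The feedback inhibitors Axin2 and Rnf43 had differences of 0.89 ± 0.22 and 0.98 ± 0.24 and missed the threshold (adjusted p = 0.0681 and 0.0682), while Prox1, a Wnt-responsive transcription factor, lay at -0.41 ± 0.24 (adjusted p = 0.509). In the Lgr5-high group, replicate 2 exceeded replicate 1 in 23 of 23 of these targets, by a median of 0.29. Of all 18820 genes, 10097 were higher in that replicate. The target and stem cell lists share genes, so this is no second observation beside the stem cell markers. Receptors and inhibitors of the pathway held 3 called genes among 15, Lgr5 itself and the Wnt receptors Fzd1 (0.57 ± 0.11) and Fzd2 (0.70 ± 0.15). Sfrp5, a secreted inhibitor of Wnt ligands, was called among the targets (0.81 ± 0.16). Fzd1, Fzd2 and Sfrp5 lost the call without either Lgr5-high Ki67-low array or Lgr5-medium Ki67-low replicate 1, and without 1 or 2 further arrays (highest adjusted p 0.134, 0.173 and 0.203).

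The promoters of a pair of these genes are shown because their windows hold CTTTGAT. Wnt signals act through TCF and LEF factors, which bind these letters. The pair was thus picked for a match, and the share over the Wnt target list was not counted. Each window is the 250 bases before the gene's start in RefSeq on GRCm38.p6, read 5′ to 3′ on the gene's strand, with the motif in capitals, written ATCAAAG where it lies on the opposite strand. The Sp5 window is chr2:70474673-70474922 on the plus strand and holds the motif 104 bases before the start.
Sp5: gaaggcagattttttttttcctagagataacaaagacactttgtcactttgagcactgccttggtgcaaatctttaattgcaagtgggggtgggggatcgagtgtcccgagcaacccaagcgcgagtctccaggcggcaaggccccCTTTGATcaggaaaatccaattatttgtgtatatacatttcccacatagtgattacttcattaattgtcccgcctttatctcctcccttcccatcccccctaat
The Tnfrsf19 window is chr14:61037988-61038237 on the minus strand, 1 of 2 in the table for this gene, and holds the motif 202 bases before the start.
Tnfrsf19: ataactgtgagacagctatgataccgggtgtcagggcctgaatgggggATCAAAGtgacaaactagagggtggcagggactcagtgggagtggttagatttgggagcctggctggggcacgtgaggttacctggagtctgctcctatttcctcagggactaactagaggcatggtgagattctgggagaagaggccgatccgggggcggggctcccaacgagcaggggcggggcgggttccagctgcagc
On either strand, the motif was present in 3 of 28 promoters of stem cell markers (10.7%) and in 7 of 120 promoters of genes called higher (5.83%), against 509 of 18141 promoters of all measured genes (2.81%) and 10 of 445 of genes called lower (2.25%). A promoter entry was found for 94 of the 124 higher and 329 of the 410 lower genes; the table has none for Lgr5. CTTTGAT shares the letters TTTGA with TTTGAA, which is searched below. These matches describe letters in a window, and binding was not measured.

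Other signalling genes differed one by one. Notch1, the receptor that keeps crypt cells from the secretory route, was 8.62 and 8.996 in the Lgr5-high arrays and 8.11 and 8.03 in the Lgr5-medium arrays (difference 0.74 ± 0.15, adjusted p = 0.0324), and Dtx4, a ubiquitin ligase of the Deltex family that acts in Notch signalling, was higher by 0.69. They were the only 2 of 20 measured Notch pathway genes called higher, and 0 were called lower (3 unadjusted). Of all genes 0.659% were called higher and 2.18% lower, which stands beside each count in this paragraph. With 1 or 2 calls in a direction, the counts describe single genes and not the lists. The Notch target Hes1 was 8.92 and 9.22 against 8.64 and 8.20 (adjusted p = 0.24), and the ligands Dll1 and Dll4, made by secretory cells, lay at -0.74 ± 0.23 (adjusted p = 0.142) and -1.01 ± 0.26 (adjusted p = 0.0736). Among 16 ephrins and Eph receptors, which guide cells along the crypt axis, Efna4 was higher (0.55 ± 0.10) and Efnb2 lower: its values were 6.92 and 6.503 in the Lgr5-high arrays and 7.69 and 7.69 in the Lgr5-medium arrays, a difference of -0.98 ± 0.20 (adjusted p = 0.0306). The receptor Ephb3 lay at 0.88 ± 0.28 (adjusted p = 0.159). Of 20 genes of bone morphogenetic protein signalling, Rgmb was higher and Id4, an inhibitor of helix-loop-helix factors, lower (-0.73 ± 0.10), and 0 of 16 genes of epidermal growth factor signalling were called (1 higher and 1 lower unadjusted). Notch1, Dtx4 and Efnb2 each lost the call without any 1 of 6 arrays and Efna4 without any 1 of 3, Lgr5-high Ki67-low replicate 2 and both Lgr5-medium Ki67-low arrays among them (highest adjusted p 0.266, 0.257, 0.261 and 0.158).

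Beyond the stem cell markers, the largest higher differences included Gkn3, a gastrokine, at 9.18 and 9.35 in the Lgr5-high arrays and 7.71 and 7.74 in the Lgr5-medium arrays (difference 1.54 ± 0.27, adjusted p = 0.0141). Ccdc3, a secreted coiled-coil protein, was higher by 1.34 ± 0.24, and Acot1, which splits acyl-CoA into free fatty acid, by 1.07 ± 0.15. Acot1 was the 1 called gene of 19 of fatty acid oxidation, where 2.84% of all genes were called. Dpysl5 (1.06), a protein of growing axons, Il17rd (1.05), an inhibitor of fibroblast growth factor signalling, and Sema3c (0.99), a secreted semaphorin, completed this set. The values of Gkn3 were 8.08 and 8.56 in the Lgr5-high and 7.14, 7.02, 6.55 and 7.57 in the Lgr5-medium arrays at Ki67 high. Acot1 was called with any 1 array left out; Gkn3 and Sema3c lost the call without any 1 of the 4 Ki67-low arrays (highest adjusted p 0.129 and 0.111), Ccdc3 and Il17rd without replicate 2 of either Ki67-low group (0.148 and 0.0937) and Dpysl5 without any 1 of 8 arrays (0.221).

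Cell cycle genes leaned to the Lgr5-high side by small amounts, and few passed the test. The counts above 0 that follow stand beside 10787 of all 18820 genes, and the called counts beside 0.659% called higher. Of 44 measured genes of DNA replication and S phase, 43 lay above 0 with a median difference of 0.36, but 2 were called, the replication factor Mcm10 (0.45 ± 0.09, adjusted p = 0.0336) and the helicase subunit Mcm4 (0.42 ± 0.09, adjusted p = 0.0442). All 40 measured genes of G2 and mitosis lay above 0, with a median of 0.34, and 0 were called (25 higher unadjusted, where 14.6% of all genes passed in either direction). The spindle checkpoint kinases Ttk and Bub1b had differences of 0.47 ± 0.11 and 0.45 ± 0.11 (adjusted p = 0.0536 and 0.0742). Mean levels over the 40 mitotic genes, relative to each gene's mean over the 10 arrays, were -0.07 and -0.24 in the Lgr5-high Ki67-low arrays, -0.61 and -0.37 in the Lgr5-medium Ki67-low arrays, and 0.15 to 0.27 in the Ki67-high arrays. The mitotic genes thus stood lowest in the Lgr5-medium Ki67-low arrays, and for each of the 40 the highest group mean was that of a Ki67-high group. Of all genes, 24.4% had theirs in Lgr5-high Ki67-high and 27.1% in Lgr5-medium Ki67-high cells. S phase genes were ordered otherwise: the Lgr5-high Ki67-low mean was the highest of the 4 groups for 34 of 44, against 28.0% of all genes. Their mean relative levels were 0.12 and 0.27 in the Lgr5-high Ki67-low arrays and -0.12 and -0.13 in the Lgr5-medium Ki67-low arrays. In the Ki67-high arrays they ran from -0.10 to 0.05. Among Lgr5-high cells, a low reporter signal thus did not go with low S phase RNA. Among 27 genes of chromatin and condensin, the condensin subunits Ncaph (0.45 ± 0.09) and Smc2 (0.38 ± 0.09) were higher, and 30 of 30 genes of ribosome biogenesis lay above 0 with 0 called (median 0.29, 19 higher unadjusted).

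Inhibitors of the cycle went the other way where they were called. Cdkn1a, which encodes the p21 inhibitor of cyclin-dependent kinases, was 7.32 and 7.25 in the Lgr5-high arrays and 8.51 and 8.27 in the Lgr5-medium arrays. Its groups did not overlap, and the difference was -1.10 ± 0.17 (adjusted p = 0.00698). Cdkn1c, which encodes p57, was lower by a smaller amount (-0.80 ± 0.18, adjusted p = 0.0489). They were the 2 called genes among 22 that inhibit or leave the cycle, whose median difference was -0.05. The share called lower over all genes was 2.18%. Without Lgr5-high Ki67-low replicate 2 or Lgr5-medium Ki67-low replicate 1, Cdkn1a was not called (highest adjusted p 0.0767), and Cdkn1c, Ncaph, Mcm4, Mcm10 and Smc2 lost the call without any 1 of 7 to 9 arrays (up to 0.272, 0.157, 0.315, 0.256 and 0.249). Without Lgr5-medium Ki67-high replicate 4, 10 S phase genes and 3 mitotic genes were called higher.
The letters TTTGAA, the core of an element found before many mitotic genes, were in 13 of 35 promoters of the mitotic genes (37.1%) against 13.3% of all promoters, and TTCCCGC, bound by E2F factors, in 13 of 46 promoters of the S phase genes (28.3%) against 5.34%. Among the genes called higher these shares were 12.5% and 4.17%.

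**Figure D3:**
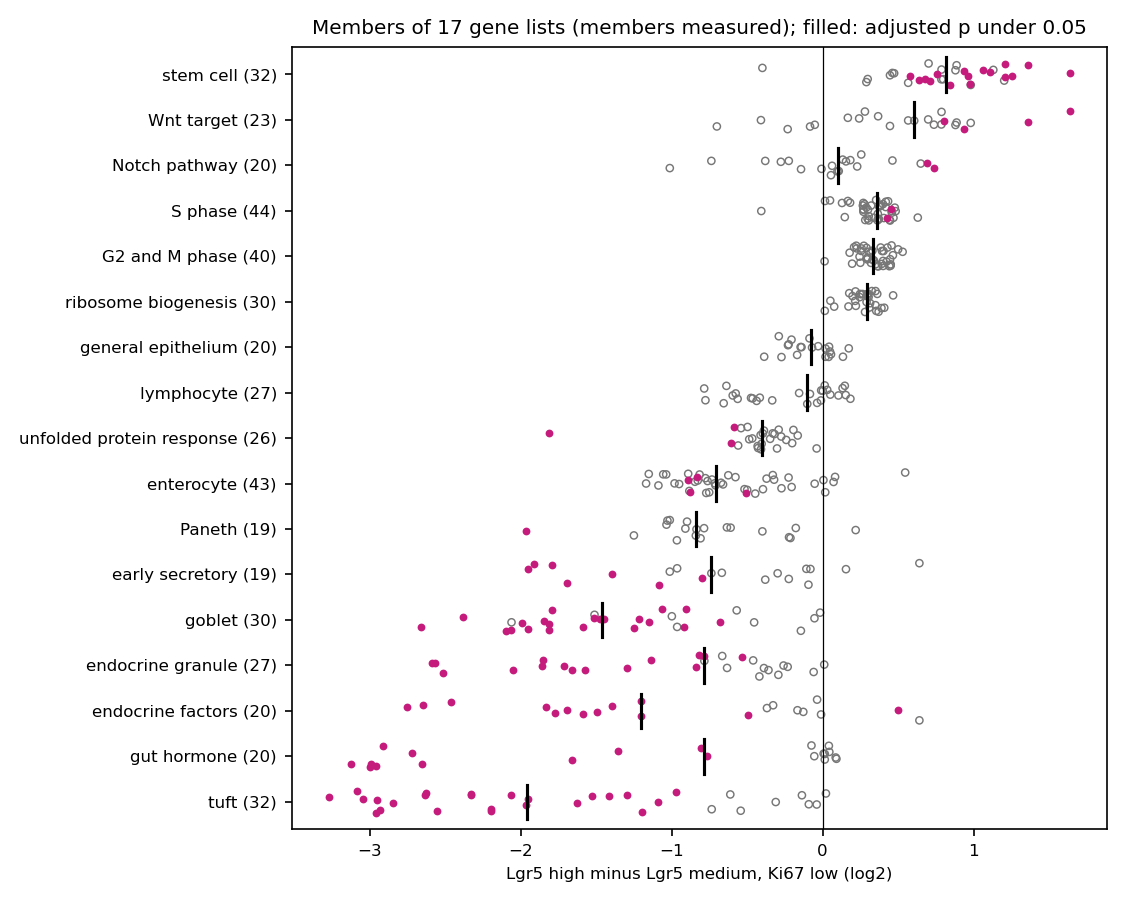
Differences between Lgr5-high and Lgr5-medium cells at Ki67 low (log2, x axis) of each measured member of 17 gene lists (y axis); filled points are called genes and black bars are list medians. The stem cell markers lie to the right with a median of 0.82, and the tuft, enteroendocrine and goblet lists lie to the left with medians between -1.96 and -0.78.

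Tuft cell genes had the most negative median of the 34 lists described. Of 32 measured markers, 24 were called lower in the Lgr5-high arrays and 0 higher, where 2.18% of all genes were called lower, and 23 were lower by at least 2-fold; the median difference was -1.96. Dclk1, a kinase that marks tuft cells, was 5.29 and 5.69 in the Lgr5-high arrays and 8.23 and 8.84 in the Lgr5-medium arrays. No Lgr5-high value came near the Lgr5-medium ones, and the difference was -3.05 ± 0.31 (adjusted p = 0.000614). Trpm5, the cation channel of taste signalling, was 4.74 and 5.57 in the Lgr5-high arrays and 7.71 and 8.46 in the Lgr5-medium arrays (difference -2.93 ± 0.33), and Plcb2, the phospholipase upstream of it, was lower too (-2.33). Alox5, the lipoxygenase that starts leukotriene synthesis, was 4.68 and 5.18 in the Lgr5-high arrays and 7.56 and 8.46 in the Lgr5-medium arrays (difference -3.08 ± 0.33). In each of these genes, replicate 2 of the Lgr5-medium group had the highest value of the 4 arrays. The adaptor Sh2d6 (-2.96), the tyrosine kinase Bmx (-1.96), the transcription factor Spib (-2.64) and Kctd12, an auxiliary protein of GABA-B receptors (-1.95), were lower as well. So were 3 genes chosen after their values were seen: Pou2f3, the transcription factor that tuft cells require (-2.07), Il17rb, a receptor subunit for interleukin-25 (-1.41), and Hpgds, which makes prostaglandin D2 (-1.53).

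Of the 32 tuft markers, 8 were not called. Il25, the cytokine of tuft cells, was at 3.03 and 3.003 against 3.16 and 2.95 and the taste G protein Gnat3 at 2.40 and 2.41 against 2.65 and 3.24, both chosen after their values were seen. Rgs13, a regulator of G protein signalling, showed the widest difference of any gene (-3.27 ± 0.72, adjusted p = 0.0425) but its Lgr5-medium values were 8.15 and 9.42, and it lost the call without any 1 of 7 arrays, all 4 Ki67-low arrays among them (highest adjusted p 0.238). Over the 32 markers, the mean level relative to each gene's mean over the 10 arrays was 1.20 and 1.71 in the Lgr5-medium Ki67-low arrays, -0.41 and -0.14 in the Lgr5-high Ki67-low arrays, and -0.68 to -0.22 in the 6 Ki67-high arrays. Of the 4 sorted groups, the tuft genes stood high in the Lgr5-medium Ki67-low one. In bulk RNA of sorted cells, fewer cells of a type and less RNA per cell cannot be told apart, here and for each cell type that follows.

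POU factors such as Pou2f3 bind the octamer ATGCAAAT, and the 2 tuft cell markers with this motif in the windows of the promoter table are shown, both from the minus strand and with the motif on the gene's own strand. The Kctd12 window is chr14:102982638-102982887, with the octamer 160 bases before the start.
Kctd12: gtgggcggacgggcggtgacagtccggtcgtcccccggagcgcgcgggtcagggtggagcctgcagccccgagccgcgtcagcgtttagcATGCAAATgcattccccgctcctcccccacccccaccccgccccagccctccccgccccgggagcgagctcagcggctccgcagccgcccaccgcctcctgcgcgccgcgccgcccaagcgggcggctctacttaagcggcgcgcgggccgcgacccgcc
The Hpgds window is chr6:65144731-65144980, with the octamer 174 bases before the start.
Hpgds: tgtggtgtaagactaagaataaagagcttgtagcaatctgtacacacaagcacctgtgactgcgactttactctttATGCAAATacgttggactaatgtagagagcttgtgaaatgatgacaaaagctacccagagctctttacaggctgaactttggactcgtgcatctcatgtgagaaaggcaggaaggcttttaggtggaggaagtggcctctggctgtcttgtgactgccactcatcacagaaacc
They are 2 of 30 tuft promoters (6.67%), and the octamer was in 13 of 445 promoters of genes called lower (2.92%) and in 273 of 18141 promoters of all measured genes (1.5%).

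Enteroendocrine genes were lower from the factors that set the fate to the hormones. Of 20 measured transcription factors of this lineage, 12 were called lower and 1 higher (median difference -1.20). The shares over all genes were 2.18% called lower and 0.659% called higher. Neurog3, which starts the lineage, was 5.52 and 5.52 in the Lgr5-high arrays and 7.69 and 6.73 in the Lgr5-medium arrays (difference -1.69 ± 0.26, adjusted p = 0.00691). Neurod1, its direct target, was 4.30 and 4.20 in the Lgr5-high arrays and 7.35 and 6.65 in the Lgr5-medium arrays (difference -2.75 ± 0.20, adjusted p = 0.00016), and Rfx6, which acts in hormone-making cells, was 4.48 and 4.39 in the Lgr5-high arrays and 7.29 and 6.86 in the Lgr5-medium arrays (difference -2.64 ± 0.15, adjusted p = 4.81e-05). In all 3 genes the Lgr5-high arrays lay close together, and replicate 1 of the Lgr5-medium group was the highest. Isl1, Pax4, Pax6, St18 and Insm1, further factors of endocrine cells, were lower, with differences of -2.46, -1.78, -1.497, -1.83 and -1.40. The 1 factor called higher was Mnx1 (0.50 ± 0.11), named after its value was seen.

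Hormone genes followed, with 11 of 20 called lower and 0 higher (median -0.78). Of all genes 2.18% were called lower, which also stands beside the count of granule genes below. Ghrl, which encodes ghrelin, was 6.96 and 6.78 in the Lgr5-high arrays and 9.66 and 10.08 in the Lgr5-medium arrays (adjusted p = 0.000235), and Cck, which encodes cholecystokinin, was 6.19 and 6.39 in the Lgr5-high arrays and 9.50 and 9.06 in the Lgr5-medium arrays (difference -2.99 ± 0.28). Gcg, the precursor of glucagon-like peptides, was 6.57 and 6.70 in the Lgr5-high arrays and 9.91 and 9.61 in the Lgr5-medium arrays (difference -3.12 ± 0.36), and Gip, the glucose-dependent insulinotropic polypeptide, was 7.503 and 8.20 in the Lgr5-high arrays and 10.70 and 10.82 in the Lgr5-medium arrays (difference -2.91 ± 0.37). In each of these 4 hormones both Lgr5-high values lay below both Lgr5-medium values, as in 19.3% of all genes. Tac1, the precursor of substance P (-2.96), Sct, which encodes secretin (-1.35), and Iapp, which encodes amylin (-0.80), were lower as well. The 9 hormone genes that were not called, such as Gast (3.60 and 3.51 against 3.57 and 3.69) and Vip (2.89 and 2.69 against 2.83 and 2.73), both chosen after their values were seen, had levels below 5.06, the median over all genes, in both groups. Of 27 genes of hormone granules, processing and exocytosis, 15 were called lower and 0 higher (median -0.79). The granule proteins Chga and Chgb were 7.38 and 7.503 against 9.90 and 10.12 and 6.88 and 7.07 against 9.55 and 9.57, with differences of -2.57 ± 0.36 and -2.58 ± 0.21. Cpe and Pcsk1, which cut prohormones, were lower too (-2.51 and -1.85). Scgn, secretagogin, a calcium sensor of endocrine cells outside the lists, was 4.09 and 4.09 in the Lgr5-high arrays and 6.98 and 6.91 in the Lgr5-medium arrays (difference -2.86 ± 0.20).

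Of the hormone genes, promoters of Cck and Gcg are shown because their windows hold CAGATG, an E-box of the kind bound by Neurog3 and Neurod1, in capitals, on the gene's own strand in each case. The Cck window is chr9:121495695-121495944 on the minus strand, with the motif 30 bases before the start.
Cck: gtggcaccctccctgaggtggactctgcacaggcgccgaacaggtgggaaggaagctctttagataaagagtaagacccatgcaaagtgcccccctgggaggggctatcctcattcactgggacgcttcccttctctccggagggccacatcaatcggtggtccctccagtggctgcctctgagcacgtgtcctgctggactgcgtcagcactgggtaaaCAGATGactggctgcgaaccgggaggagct
The Gcg window is chr2:62483654-62483903 on the minus strand, with matches 139 and 83 bases before the start.
Gcg: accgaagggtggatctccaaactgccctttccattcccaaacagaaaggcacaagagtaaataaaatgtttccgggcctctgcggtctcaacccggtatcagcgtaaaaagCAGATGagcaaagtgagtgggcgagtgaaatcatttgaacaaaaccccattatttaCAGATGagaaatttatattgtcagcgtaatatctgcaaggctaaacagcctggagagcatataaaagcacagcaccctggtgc
On either strand, CAGATG was in 7 of 26 promoters of hormone genes (26.9%), 3 of 21 of the transcription factors (14.3%) and 1 of 20 of the granule genes (5.0%), against 11.8% of all promoters and 15.3% of those of genes called lower.

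Most goblet cell genes were lower. Of 30 measured markers 21 were called lower and 0 higher, and 0 lay above 0 (median -1.46), where 10787 of all 18820 genes did. Of all genes 2.18% were called lower, which also stands beside the early secretory count below. Atoh1, the factor that sets secretory fate, was 6.71 and 6.91 in the Lgr5-high arrays and 9.26 and 8.26 in the Lgr5-medium arrays (difference -1.95 ± 0.25, adjusted p = 0.00237). Spdef, a factor of goblet and Paneth cell maturation, was 6.42 and 6.80 in the Lgr5-high arrays and 8.80 and 8.01 in the Lgr5-medium arrays (difference -1.79 ± 0.23). Muc2, the main mucin of the intestine, was 10.40 and 10.80 in the Lgr5-high arrays and 12.19 and 12.04 in the Lgr5-medium arrays (difference -1.51 ± 0.18, adjusted p = 0.00137). The mucus proteins Clca1 and Tff3 were lower (-1.81 and -1.22), as were the calpain Capn9 (-2.66) and Bcas1 (-2.07). For 20 of the 21 called markers the higher Lgr5-medium value was that of replicate 1, whereas for 24 of 24 called tuft markers it was that of replicate 2. The 2 Lgr5-medium arrays thus differed in which secretory genes stood highest, and both exceeded both Lgr5-high arrays in the mean over the list (1.24 and 0.68 for the goblet genes). Without Lgr5-high Ki67-low replicate 1, 13 goblet genes were called. Among 19 genes of early secretory cells and of those released from Notch signals, 7 were called lower and 0 higher (median -0.74). They included Cbfa2t3, a co-repressor (-1.08 ± 0.17), Selenom, a selenoprotein of the endoplasmic reticulum (-1.91 ± 0.16), and Cdkn1c. The list also holds Atoh1 and Spdef of the goblet list and Neurog3 and Insm1 of the transcription factor list, whose calls are counted there already. Neurog3 lost the call without Lgr5-high Ki67-low replicate 2. Cbfa2t3 lost it without either Lgr5-high Ki67-low array or without Lgr5-medium Ki67-low replicate 1.

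Paneth cell genes could not be placed with the same precision. Of 19 measured markers 1 was called lower, Mptx1, a mucosal pentraxin, at 5.56 and 5.41 in the Lgr5-high arrays and 8.20 and 6.69 in the Lgr5-medium arrays (difference -1.96 ± 0.43, adjusted p = 0.0437). The median difference was -0.84, and at an unadjusted p under 0.05 in limma 11 were lower and 0 higher. Of all genes 2.18% were called lower after adjustment. In the Lgr5-medium group 18 of 19 were higher in replicate 1 than in replicate 2, by a median of 0.77, as were 9757 of all 18820 genes. Lyz1, the lysozyme of Paneth cells, was 12.76 and 12.82 in the Lgr5-high arrays and 13.06 and 12.88 in the Lgr5-medium arrays (difference -0.18 ± 0.11, adjusted p = 0.513), and Ang4, an antimicrobial angiogenin, was 8.65 and 8.62 against 9.80 and 9.05 (adjusted p = 0.189). Without replicate 2 of the Lgr5-medium Ki67-low group, 7 Paneth markers were called lower, and Mptx1 was not called without any 1 of 7 arrays (highest adjusted p 0.261). The other 10 of its 29 entries, most of them alpha-defensins, were not analysed here.

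**Figure D4:**
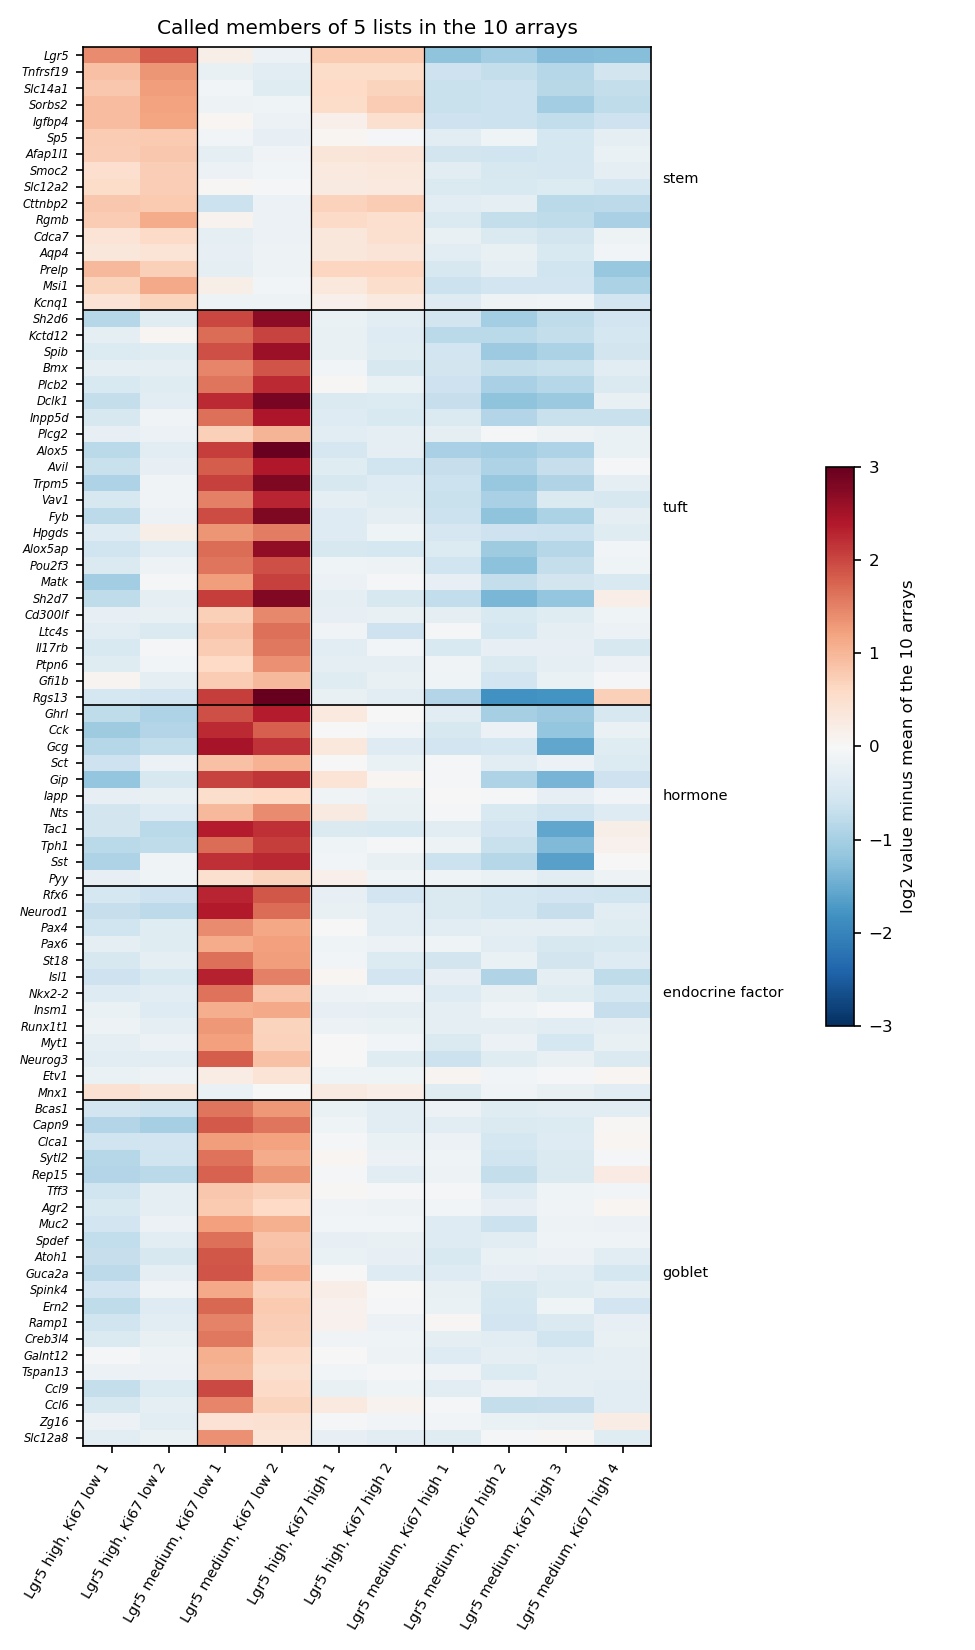
Levels of the 85 called members of 5 gene lists (rows) in the 10 arrays (columns), as log2 value minus the gene's mean over the 10 arrays (colour). Stem cell genes are, by group mean, highest in the 2 Lgr5-high Ki67-low arrays, and tuft, enteroendocrine and goblet genes are, by group mean, highest in the 2 Lgr5-medium Ki67-low arrays, with Mnx1 as the exception.

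Absorptive genes leaned to the lower side, and few were called. Of 43 measured enterocyte markers 38 lay below 0 (median -0.71), as did 8033 of all 18820 genes. In limma 24 were lower and 1 higher at an unadjusted p under 0.05, where 1401 of all genes were lower. After adjustment, Cdhr5, a cadherin of the brush border (-0.88 ± 0.11), and Dgat2, which makes triglycerides (-0.83 ± 0.16), were called lower. Alpi, intestinal alkaline phosphatase, and the brush border myosin Myo1a (-0.51 ± 0.11) made up the 4 called. The share called lower over all genes was 2.18%. Alpi was 10.08 and 9.84 in the Lgr5-high arrays and 10.81 and 10.90 in the Lgr5-medium arrays (difference -0.89 ± 0.19, adjusted p = 0.0366). In the Lgr5-high group replicate 1 exceeded replicate 2 for 39 of 43 enterocyte genes, by a median of 0.41, and in the Lgr5-medium group replicate 2 was higher for 36 of 43. Over all 18820 genes these counts were 8721 and 9062. The spread between replicates was therefore wide beside the difference: leaving out Lgr5-high Ki67-low replicate 2 left 1 marker called, and leaving out its replicate 1 gave 9. Cdhr5 was called in each of these fits, and Dgat2, Alpi and Myo1a were not called without Lgr5-high Ki67-low replicate 2, either Lgr5-medium Ki67-low array and, for Alpi and Myo1a, 3 or 5 other arrays (highest adjusted p 0.187, 0.276 and 0.313).

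Genes for protein folding in the endoplasmic reticulum lay below 0 in 26 of 26 cases, as did 8033 of all 18820 genes. At an unadjusted p under 0.05 in limma, 18 of the 26 were lower and 0 higher. After adjustment 2.18% of all genes were called lower, which stands beside the called counts in this paragraph. Of these genes of the unfolded protein response 3 were called lower: Ern2, a stress sensor of mucous cells (-1.81 ± 0.27), Edem1, which sends misfolded proteins to degradation (-0.59 ± 0.12), and Sdf2l1 (-0.61 ± 0.14). The median was -0.40, and Xbp1, the transcription factor of this response, was 9.95 and 9.72 against 10.54 and 10.22 (adjusted p = 0.0572). The letters TGACGTGG, which XBP1 can bind, were in 6 of 445 promoters of genes called lower (1.35%) and in 0.639% of all. In energy metabolism, 3 of 22 glycolysis genes were lower, the hexokinase Hk1 (-1.08 ± 0.12), Pfkfb3, which makes an activator of glycolysis (-1.14 ± 0.21), and the phosphofructokinase Pfkp (-0.67 ± 0.15). Of 26 genes of oxidative phosphorylation and 22 of sterol synthesis 0 were called, with medians of -0.05 and -0.26, and unadjusted 0 and 6 were lower. Among 27 interferon-response genes 1 was called (3.7%), near the 2.84% of all genes, so this count describes 1 gene and not the list. It was Oas2, an antiviral enzyme. Its values were 4.60 and 4.58 in the Lgr5-high arrays and 6.30 and 6.33 in the Lgr5-medium arrays (difference -1.72 ± 0.31). The 10 genes of antigen presentation by MHC class II (median 0.28), 25 immediate early genes (median 0.01) and 18 genes of claudins and junctions (median -0.02) held 0 called genes, and unadjusted 4, 3 and 3 differed. Ern2 lost the call without Lgr5-high Ki67-low replicate 1 (0.0526), Pfkfb3 and Oas2 without any 1 of the 4 Ki67-low arrays (0.119 and 0.125), and Edem1, Sdf2l1 and Pfkp without any 1 of 6 or 7 arrays (0.231, 0.339 and 0.31).

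Some tuft cell genes are also used by blood cells, so markers of other cells that a sort could hold are given beside them. Of 27 genes of T cells and intraepithelial lymphocytes 0 were called (2 lower unadjusted), with a median difference of -0.10. Ptprc, which encodes CD45, was 4.78 and 4.83 in the Lgr5-high arrays and 5.03 and 5.77 in the Lgr5-medium arrays (difference -0.60 ± 0.29, adjusted p = 0.403), and Ccl5, a chemokine of lymphocytes, was 6.22 and 6.29 against 6.63 and 7.45 (adjusted p = 0.46). Replicate 2 of the Lgr5-medium group was the highest array for both, and the mean over the list, relative to each gene's mean over the 10 arrays, was 0.05 and 0.41 in the Lgr5-medium Ki67-low arrays and -0.40 to 0.18 in the other 8. The part of such cells in the tuft genes was not tested. Of 24 myeloid and B cell genes 1 was called lower, the receptor kinase Kit (-1.37 ± 0.19), and of 22 stromal, endothelial and red cell genes 1, the intermediate filament Vim, at 5.82 and 5.93 in the Lgr5-high arrays and 8.61 and 8.37 in the Lgr5-medium arrays (difference -2.61 ± 0.19, adjusted p = 0.000169). The median differences of these lists were 0.01 and -0.02, and among the 73 genes of the 3 lists together 2 were called, where 2.84% of all genes were.

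The same comparison was then made among Ki67-high cells, whose arrays are not shared with the Ki67-low comparison. Both come from the same fit and share its estimate of each gene's spread, so their calls are not independent. There, 176 genes were called (0.935%), 98 higher (0.521%) and 78 lower (0.414%) in Lgr5-high cells. Genes called in the same direction at both Ki67 levels numbered 65, of which 42 were higher and 23 lower, and 0 were called in opposite directions; the 65 were 12.2% of the Ki67-low calls and 36.9% of the Ki67-high calls. Of the 32 stem cell markers 17 were called higher at Ki67 high, with a median of 0.88. The interaction, which is the Ki67-low difference minus the Ki67-high one, was called for 0 of them (2 unadjusted) and had a median of -0.07. Lgr5 was 9.39 and 9.38 in the Lgr5-high and 7.39, 7.56, 7.29 and 7.32 in the Lgr5-medium arrays at Ki67 high, a difference of 1.99. Smoc2, Tnfrsf19 and Igfbp4 differed by 0.71, 1.23 and 0.98 there. Sp5, with 0.33, was not called at Ki67 high, but its interaction of 0.61 was not called either (adjusted p = 0.217).

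For many tuft, enteroendocrine and goblet genes the Lgr5 difference was more negative at Ki67 low than at Ki67 high. The interaction was called for 196 genes (1.04%), and 194 of them (1.03%) had a more negative difference at Ki67 low. Among the 410 genes lower at Ki67 low, 186 had such an interaction, a term that holds the same Ki67-low difference. Of the 160 genes of the tuft, enteroendocrine, goblet, Paneth and early secretory lists, 87 were called lower at Ki67 low and 73 had a called negative interaction. In 142 of the 160 the Lgr5-medium Ki67-low mean was the highest of the 4 groups, against 20.5% of all genes. The interaction was called for 19 of 32 tuft, 11 of 20 hormone, 11 of 20 transcription factor, 13 of 27 granule, 18 of 30 goblet and 5 of 19 early secretory genes, and for 0 of 19 Paneth genes (16 negative and 2 positive unadjusted). At Ki67 high 2 Paneth list members were called lower, the antimicrobial lectins Reg3b (-1.05) and Reg3g (-0.85), against Mptx1 alone at Ki67 low, and the interactions of these 3 genes had adjusted p = 0.472, 0.452 and 0.367 in limma. The largest terms belonged to hormones: Gip had -3.89 ± 0.48 (SE), Ghrl -3.88 ± 0.33 and Gcg -3.85 ± 0.47. Gip was 9.08 and 8.72 in the Lgr5-high and 8.61, 7.75, 7.27 and 8.04 in the Lgr5-medium arrays at Ki67 high, and both Lgr5-high values there lay above the Lgr5-medium ones, a difference that did not pass the test (0.98, adjusted p = 0.179). Dclk1 was 5.58 and 5.598 in the Lgr5-high and 5.32, 4.79, 4.89 and 5.77 in the Lgr5-medium arrays at Ki67 high, a difference of 0.40 (adjusted p = 0.531). Muc2 was 10.89 and 10.88 in the Lgr5-high and 10.58, 10.32, 10.81 and 10.78 in the Lgr5-medium arrays there, a difference of 0.26 (adjusted p = 0.459). Enterocyte markers had 0 called interactions (2 unadjusted), with a median of -0.71 at Ki67 low and -0.27 at Ki67 high, where 1, the amino acid transporter Slc7a9, was called lower. Without Lgr5-high Ki67-high replicate 1 the interaction was called for 79 genes and without replicate 2 of that group for 117. Without Lgr5-high Ki67-low replicate 1 it was called for 86, without replicate 2 of that group for 124, and without Lgr5-medium Ki67-low replicate 2 for 292.

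**Figure D5:**
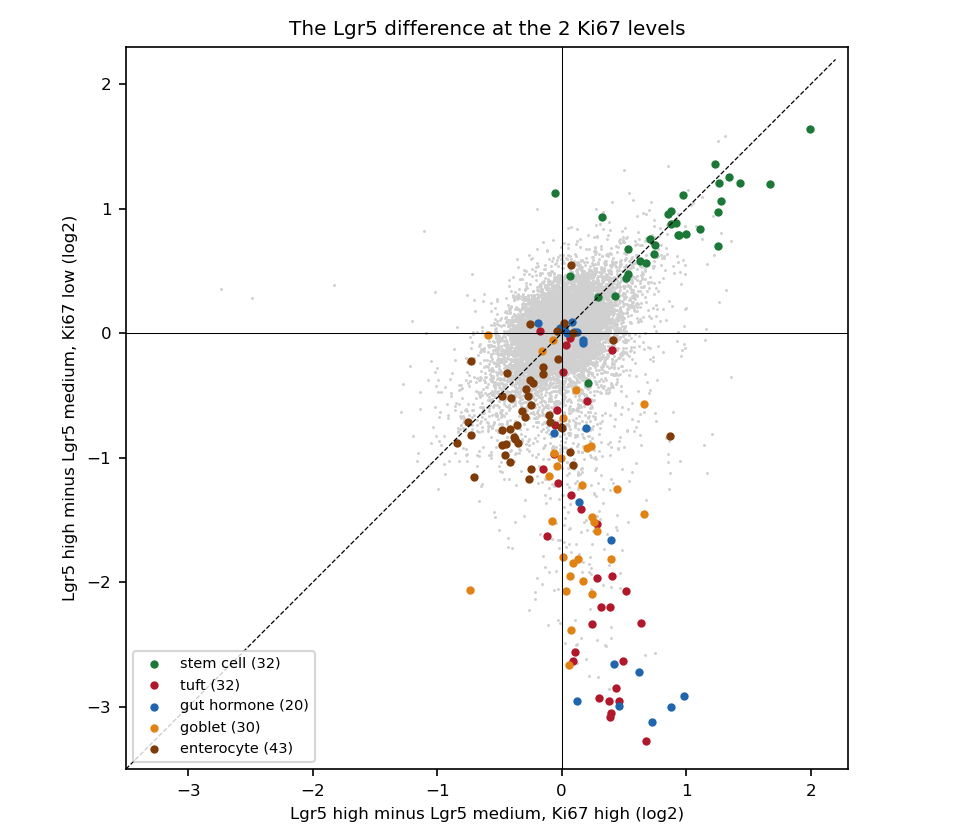
Lgr5-high minus Lgr5-medium difference at Ki67 low (log2, y axis) against the same difference at Ki67 high (log2, x axis) for 18820 genes (grey), with members of 5 lists coloured. Of the 32 stem cell markers 31 lie above 0 on the y axis, while tuft, hormone and goblet genes spread down the negative y axis with x values mostly near or above 0.

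For cell cycle genes the Lgr5 difference was likewise set beside that of the Ki67-high cells. The median Lgr5 difference of the mitotic genes was 0.34 at Ki67 low and -0.04 at Ki67 high, and that of the S phase genes was 0.36 and 0.01, with 0 called interactions in either list. Unadjusted, 15 of 40 mitotic and 12 of 44 S phase genes had a positive interaction and 0 a negative one, where 574 of 18820 genes had a positive one and 946 a negative one. Trip13, an ATPase of the meiotic and mitotic checkpoint, was 1 of 2 genes (0.0106%) with a called positive interaction (0.77 ± 0.14, SE): it was 7.37 and 7.39 in the Lgr5-high arrays and 6.84 and 7.05 in the Lgr5-medium arrays at Ki67 low and 7.22 and 7.16 in the Lgr5-high and 7.58, 7.49, 7.42 and 7.62 in the Lgr5-medium arrays at Ki67 high. The other was the pseudogene Rdh18-ps, named after its value was seen.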

How the data were processed

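Total RNA of sorted mouse intestinal epithelial cells was measured on 10 Affymetrix Mouse Gene ST 1.1 arrays, 1 sample per array. The values are those that the authors deposited for 35556 probe sets, read as log2 from their range; the sources used here do not state the log base, background correction or normalization. MAS5 and GCOS are named, without version or role, in the submitters' processing notes; MAS5 relies on mismatch probes that this array lacks, so the program behind the values is unknown. If the base is another one, differences change in unit but not in direction or test. No values of signal over background were used.

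Probe sets with 1 symbol in the platform's gene table (21218) were kept; 1881 had several and 12457 none. By Entrez number, 21185 matched RefSeq of GRCm38.p6, with 0 symbols changed. For the 1386 genes with more than 1 probe set, the probe set brightest on average was used. With limma 3.58.1 in R 4.3.3, group means were fitted to the 10 arrays, leaving 6 residual degrees of freedom. Its two-sided moderated tests were adjusted by Benjamini-Hochberg over 18820 genes, called under 0.05 whatever the fold. The script was tested on simulated data.

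Groups came from the sample titles. The genes named are the 15 with the largest differences in each direction among called genes whose arrays did not overlap and whose higher mean lay above 5.06, leaving out predicted genes, receptors of smell and small RNAs; up to 6 members of each list by p-value; a few fixed markers; and 5 genes in each direction of the interaction. Others are said to be chosen after their values were seen. The comparison and the 34 lists (814 of 893 entries measured) were chosen with earlier results of these data known, so lists are described by counts and medians with no test. Alternatives were quantile normalization, centring, a filter on dim genes, averaged probe sets, every probe set of the table, only the Ki67-low arrays, array weights, another variance prior, a replicate block and leaving out each array. Promoters are the 250 bases before RefSeq starts, searched on both strands.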

Additional observations from a re-analysis of the deposited data

Results flagged for a closer look

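The Lgr5 difference at Ki67 low was set against that at Ki67 high by an interaction term of the limma fit, which was called for 196 genes. The most negative terms among the genes chosen for naming were those of the hormones Gip (-3.89), Ghrl (-3.88), Gcg (-3.85) and Cck (-3.45) and of the leukotriene enzyme Alox5 (-3.47). For each of these 5 genes the Lgr5-medium Ki67-low arrays were the highest of the 10. Trip13, a checkpoint ATPase, had a positive term of 0.77, and its 2 Lgr5-medium Ki67-low values were the lowest of the 10 arrays.

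Among the 4 Lgr5-medium Ki67-high arrays, 42 genes named for the comparison were looked at for a value far from the other 3 by Dixon's ratio of the gap to the range. Chance marks about 1 in 20 groups, and 2 of the 42 genes were marked. Alox5 was highest in replicate 4, at 5.29. Olfm4 was lowest in replicate 3, at 11.9. Replicate 4 is also the array with the lowest weight. The tuft cell gene Rgs13 was at 6.79 there against 4.25 to 5.20 in the other 3, but the ratio did not mark it.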

How the results depend on the processing

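With 2 arrays a group, the counts of called genes moved with the processing more than the directions did: of the 221 named genes 91 were called, and 0 of these changed sign in the alternatives fitted gene by gene (219 and 90 of them with the filter on dim genes), while at most 2 uncalled genes did in any 1 of these. The fit over every probe set was only counted. Beside the 534 calls reported (124 higher, 410 lower), a fit of only the 4 Ki67-low arrays called 274 genes (44 and 230), 242 of them among the 534 in the same direction, with 13 goblet and 4 early secretory genes. Array weights gave 803 calls, 532 of them shared, with 242 higher and 299 interactions. With every probe set of the table fitted, 318 probe sets were called (56 and 262, with 124 interactions), 13 of the higher and 20 of the lower ones without a symbol. Centring gave 253 higher genes. Leaving out 1 array gave 198 to 921 called genes, 16 to 328 higher, 182 to 593 lower and 79 to 292 interactions. In the same fits 7 to 21 stem cell markers were higher, and 19 to 26 tuft, 9 to 11 hormone, 10 to 12 transcription factor, 12 to 17 granule, 13 to 24 goblet and 4 to 9 early secretory genes were lower, and the Lgr5 difference ran from 1.43 to 1.84. Where the arrays left in the fit change, so does the number of samples; the cause of the other moves was not tested.

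The replicate numbers did not pair the samples: deviations of same-numbered arrays from their group means correlated at no more than 0.013, and at -0.30 between the Ki67-low groups. In a group of 2 arrays the deviations are mirror images, so crossed numbers gave 0.30. Some arrays with different numbers shared deviations. Lgr5-medium Ki67-high replicate 3 correlated at 0.44 with Lgr5-high Ki67-low replicate 2 and at 0.45 with Lgr5-medium Ki67-low replicate 1. The cause was not tested. With the replicate block, 502 genes were called (126 higher, 376 lower) and 128 interactions. Chosen after this check, a block with crossed numbers gave 881 calls, 279 of them higher. Quantile normalization, the filter on the dimmest 30% of genes, averaged probe sets and another variance prior kept each of these counts within 1.5 times. Precision is limited by the number of arrays, and signal over background was not used here.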

Other observations

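Genes outside the lists made up most of the calls, 96 of the 124 higher and 308 of the 410 lower genes. Those named here were chosen after their values were seen, and the families below also hold the list members Aqp4, Cdca7 and Rab3c. Families with smaller shares of calls were counted too and are not described further. Among them, 5 of 85 potassium channels were lower and 1 higher, 2 of 17 synaptotagmins were lower, and 1 of 12 septins was higher. Over all genes, 2.18% were called lower and 0.659% higher. Higher in the Lgr5-high Ki67-low arrays were the transcription factor Mecom (0.96 ± 0.12), the growth factor receptor Fgfr4 (0.96 ± 0.18) and the growth factor Fgf1 (0.76 ± 0.12). The amino acid transporter Slc38a4 (1.10 ± 0.13), the kinase Hunk (0.92 ± 0.20), the kinesin Kif26b (0.94 ± 0.20) and the stress-response protein Sesn3 (0.86 ± 0.14) were higher as well. Of 11 measured aquaporins, the water channels Aqp1 and Aqp4 were higher (0.59 and 0.58), and of 6 genes named for cell division cycle association, Cdca2, Cdca5 and Cdca7 were higher (0.58, 0.50 and 0.71).

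Among the lower genes, the nutrient receptors Ffar1, Ffar2 and Ffar3, which sense fatty acids, were 3 of 4 measured in their family (-0.83, -0.90 and -1.37). The annexins Anxa2, Anxa3, Anxa5, Anxa6 and Anxa13 were 5 of 12, with differences of -0.71, -1.22, -1.36, -0.99 and -0.78. The secretory Rab proteins Rab27a, Rab27b, Rab3c and Rab3d were 4 of 58 (-1.91, -1.11, -1.72 and -0.91), and the mucin-branching enzymes Gcnt1 and Gcnt3 were lower with Gcnt2, 3 of 5 of their family. The ion channels Trpa1 (-1.80 ± 0.35) and Scnn1a (-1.79 ± 0.20), the retinol carrier Rbp4 (-2.05 ± 0.20) and the secretory cell factor Bhlha15 (-1.24 ± 0.20) were lower too. Siglecf, a lectin of eosinophils and tuft cells, was 5.09 and 5.34 in the Lgr5-high arrays and 6.32 and 7.61 in the Lgr5-medium arrays (difference -1.76 ± 0.33), and Afp, alpha-fetoprotein, was 4.14 and 3.45 in the Lgr5-high arrays and 5.32 and 6.38 in the Lgr5-medium arrays (difference -2.05 ± 0.44). The 2 groups did not overlap for either gene.

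Replicates differed more than the compared groups did in some gene lists, the immediate early genes among them. For the 26 oxidative phosphorylation genes, the median of replicate 1 minus replicate 2 was -0.17 at Lgr5 medium and 0.20 at Lgr5 high. Between the groups their median difference was -0.05. Of 25 immediate early genes, which respond to stimulation within minutes, 24 were higher in replicate 1 of the Lgr5-medium Ki67-low group, by a median of 0.79. In the Lgr5-high Ki67-low group 25 of 25 were higher in replicate 2, by a median of 0.40. Over all 18820 genes these counts were 9757 and 10097. Ccn1, a matricellular protein among the immediate early genes, was 9.82 and 10.45 in the Lgr5-high arrays and 10.01 and 8.31 in the Lgr5-medium arrays. None of the 25 was called between the groups, at an adjusted p under 0.05 in limma.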
